A study of Saccharomyces cerevisiae with 24 samples.

Results

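The comparison is between *Saccharomyces cerevisiae* cells without Swc5 and cells without Swr1, with *HTZ1*, the gene of the histone variant H2A.Z, intact in both. It holds 6 of the 24 arrays of the series, 3 labelled *swc5Δ* and 3 labelled *swr1Δ*, each with RNA from 1 independent culture grown to mid-log phase in supplemented minimal medium (SMM) without any treatment. Both are haploid *MATa* deletion strains of the BY4741 background with the alleles *his3Δ1*, *leu2Δ0*, *ura3Δ0* and *met15Δ0*, and each has its own gene replaced by *kanMX4*. The labels give the *swc5Δ* cultures 1 strain name, Y03371, and the *swr1Δ* cultures the names Y03693, Y03694 and Y03695, of which the list of strains holds the first only. The 3 were taken as cultures of 1 strain, which the labels do not settle. On that reading each genotype is 1 strain, so what these strains differ in beside the deletion cannot be told apart from the deletion. The cultures then give the spread between cultures of 1 strain and not between separately made mutants. The 5498 of 10928 probe sets that are paired with exactly 1 yeast gene (5449 genes) were compared, and a probe set is called by its gene below. A second pair of strains, *htz1Δ swc5Δ* (BYh1s5-4C, which also carries *lys2Δ0*) and *htz1Δ swr1Δ* (BYh1s1-8D), also *MATa* with the same 4 alleles, has the same contrast in cells without H2A.Z. For some genes the levels in 4 further strains are given, all *MATa* with the same 4 alleles: wild type (BY4741), *swc2Δ* (Y04319, without the subunit Swc2), *htz1Δ swc2Δ* (BYh1s2-1B) and *htz1Δ* (BYh1b1-6A). In BYh1b1-6A the gene of the α-factor protease, *BAR1*, is deleted as well (*bar1Δ::hyg*), and its level was 2.94 in *htz1Δ* and 12.24 in wild type (means, n = 3). What the loss of *BAR1* adds to *htz1Δ* cannot be told apart from the loss of H2A.Z.

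The SWR1 complex exchanges H2A in nucleosomes for H2A.Z, mostly in the nucleosomes next to promoters. Swr1 is the ATPase of the complex and the scaffold on which it is built, and without it the complex does not form. Swc5 is needed for the transfer of H2A.Z, but the complex is still assembled without it. Cells without Swr1 therefore have no complex, and cells without Swc5 have a complex with little or no exchange of the histone. In the study H2A.Z on chromatin was nearly but not fully gone without Swc5. For some genes it proposes that the complex without Swc5 may keep a residual activity. The comparison asks what the presence of such a complex does to transcription while H2A.Z is still made. By western blot, the study found several-fold less tagged H2A.Z protein in both strains than in wild type. Any residual exchange in *swc5Δ* cannot be told apart from the presence of the complex.

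The deleted genes were as labelled on all 6 arrays. *SWC5* (YBR231C) lay at 2.32, 2.90 and 2.70 (log2 expression, replicates 1 to 3) in *swc5Δ* and at 8.28, 8.09 and 8.01 in *swr1Δ*. *SWR1* (YDR334W) lay at 9.94, 9.95 and 9.79 in *swc5Δ* and at 2.80, 2.94 and 3.49 in *swr1Δ*. A deleted gene lies at the level of the probe sets for another yeast species on the same array, whose 95th percentile was 3.76 to 3.87 on the 6 arrays. *HTZ1* (YOL012C) lay at 11.31, 11.53 and 11.48 in *swc5Δ* and at 11.23, 11.17 and 11.17 in *swr1Δ*, and at 10.19 ± 0.10 (SD, n = 3) in wild type. Its RNA thus lay above wild type in both strains, whereas the study reported the mRNA as not affected in its tagged strains. Mating type was checked on the 7 genes specific to **a** cells and the 4 specific to α cells. *STE2*, the α-factor receptor of **a** cells, lay between 12.99 and 13.16 on the 6 arrays, and *STE3*, the **a**-factor receptor of α cells, between 4.50 and 5.49. *STE2*, *STE3* and *BAR1* were chosen after their values were seen.

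As deposited, the *swc5Δ* arrays lie above the *swr1Δ* arrays as a whole (medians of 9.97 to 9.99 against 9.29 to 9.30), so that nearly every gene would be called higher in *swc5Δ*. Each of the 6 arrays was therefore mapped by rank to 1 distribution, the mean of 15 arrays of the other strains, and all values below are log2 values after this mapping. A difference between the strains that shifts all genes alike is lost by it. Differences are *swc5Δ* minus *swr1Δ*, with adjusted p from limma.

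Replicate 1 of *swc5Δ* stands apart from replicates 2 and 3. Its correlation with them over the tested genes is 0.976 and 0.977, against 0.995 between replicates 2 and 3 and 0.997 between any 2 *swr1Δ* arrays. It lay over 2-fold from the mean of the other 2 *swc5Δ* arrays in 178 genes, 111 higher and 67 lower, and an array of *swr1Δ* did so from the other 2 in 2 to 8. The median SD over the genes is 0.151 in *swc5Δ*, 0.071 without replicate 1 and 0.067 in *swr1Δ*. The main counts over all genes are therefore given with all arrays and without *swc5Δ* replicate 1. Single genes and lists are given with all arrays, and without that array only where this is stated.

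The genes in which replicate 1 lay farthest from replicates 2 and 3 are, in the main, enzymes of arginine and lysine synthesis. *ARG3* (YJL088W), ornithine carbamoyltransferase, lay at 13.24 on replicate 1 of *swc5Δ*, at 8.03 and 8.19 on replicates 2 and 3, and at 8.58, 8.78 and 9.13 in *swr1Δ*. *ARG1*, argininosuccinate synthetase, lay at 14.01, 9.74 and 10.25 in *swc5Δ* and at 10.78, 11.02 and 11.37 in *swr1Δ*. *LYS1*, the last enzyme of lysine synthesis, lay at 12.49, 8.65 and 8.35 against 8.62, 8.95 and 9.04. In each, replicate 1 is above all other 5 arrays, and replicates 2 and 3 lie within or below the *swr1Δ* range. *LYS20* (homocitrate synthase), *ARG8* (acetylornithine aminotransferase) and *RTC2* (a vacuolar transporter of basic amino acids) had the same order, with *RTC2* at 11.20, 6.25 and 6.23 against 6.55 to 6.62. *PHO84*, the high-affinity phosphate transporter, lay at 6.85 on replicate 1, 9.81 on replicate 2 and 12.26 on replicate 3, with the 3 *swr1Δ* arrays between 9.95 and 10.23. *YOR387C* lay at 4.46, 6.49 and 9.42 against 7.62 to 9.05. With all arrays none of these 8 genes passed the test (*ARG3* 0.99, standard error 0.86, adjusted p = 0.44). Without replicate 1, *ARG8* alone passed, lower in *swc5Δ* (-0.58, adjusted p = 0.043), where the mean of all arrays is higher (0.47, adjusted p = 0.55). Over the 7 measured genes of arginine synthesis the median difference from the *swr1Δ* mean was 2.02 on replicate 1 and -0.51 and -0.26 on replicates 2 and 3, and over the 9 of lysine synthesis it was 1.84, -0.14 and -0.18. No gene of either list passed with all arrays.

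**Figure D1:**
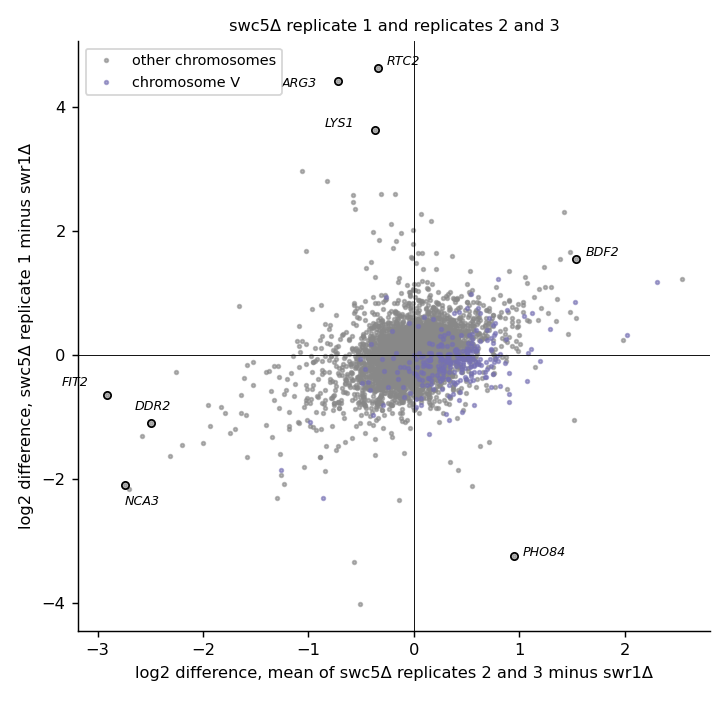
Each point is 1 of the tested genes (the deleted *SWC5* and *SWR1* left out), with the log2 difference from *swr1Δ* of the mean of *swc5Δ* replicates 2 and 3 on the x axis and that of *swc5Δ* replicate 1 on the y axis. *ARG3*, *LYS1* and *RTC2* stand far above 0 on replicate 1 and not on replicates 2 and 3, *BDF2* lies at 1.54 on both axes, and the genes of chromosome V lie to the right of the others.

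Replicates 2 and 3 stand apart in another way, by a whole chromosome. Over the 261 genes of chromosome V the median difference from the *swr1Δ* mean was 0.36 on replicate 2 and 0.39 on replicate 3, and -0.10 on replicate 1. Over each of the other 15 chromosomes it lay between -0.04 and 0.02 on replicates 2 and 3 and between -0.01 and 0.07 on replicate 1. On the 21 arrays of the other strains, *htz1Δ swc5Δ* included, the median of chromosome V lay between -0.03 and 0.05. The rise runs along the chromosome. In 5 consecutive groups of 52 probe sets from the left to the right end the medians were 0.30, 0.46, 0.45, 0.29 and 0.37 on replicate 2 and 0.33, 0.39, 0.44, 0.35 and 0.42 on replicate 3, against -0.12, -0.11, -0.01, -0.19 and -0.09 on replicate 1. Of the 261 genes 83.9% lay above all 3 *swr1Δ* arrays on replicate 2 and 83.1% on replicate 3, but 25.7% on replicate 1. DNA was not measured, and the cause of this shift was not tested. The label *swc5Δ* thus covers cultures of different chromosome V levels. The genes of this chromosome named below are therefore given on replicate 1 alone as well.

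**Figure D2:**
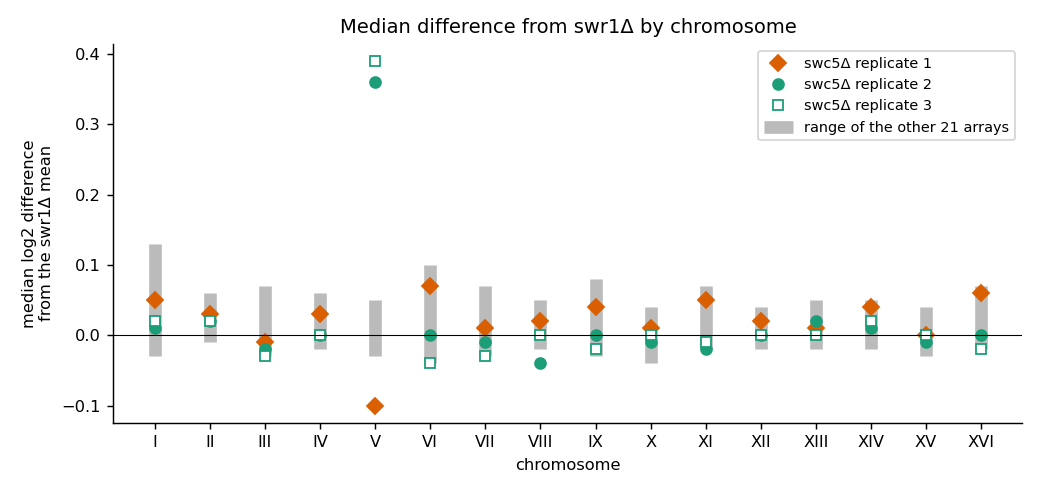
Median log2 difference from the *swr1Δ* mean (y axis) over the tested genes of each chromosome (x axis), with 1 symbol for each *swc5Δ* array and a grey bar for the range of the 21 arrays of the other strains. On chromosome V replicates 2 and 3 lie at 0.36 and 0.39 and replicate 1 at -0.10, outside the bar of -0.03 to 0.05.

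Most genes did not differ much between the strains. The 95% interval of the difference lay within 1.5-fold in 4377 of 5498 genes (79.6%) with all arrays and in 4244 (77.2%) without *swc5Δ* replicate 1, in 4070 of them in both. Past an adjusted p of 0.05 and a 2-fold difference, 23 genes were higher in *swc5Δ* (0.418% of those tested) and 50 lower (0.909%). The arrays of the strains do not overlap in all 23 of the higher and 49 of the lower genes. A lack of overlap thus adds little to a call, and the share of all genes without overlap is not given here. At any size 644 were higher (11.7%) and 552 lower (10.0%), with no overlap in 591 and 531. The test pools the spread of 8 strains, while the median SD was 0.151 in *swc5Δ* and 0.067 in *swr1Δ*. Fitted on the 6 arrays alone, 194 were higher and 171 lower at any size. In the fit over all strains without *swc5Δ* replicate 1 the counts were 39 higher (0.709%) and 67 lower (1.22%) at 2-fold. At any size they were 836 (15.2%) and 726 (13.2%). At 2-fold 22 of the higher and 41 of the lower genes were called in both. Chromosome V held 75 of the 644 genes that were higher with all arrays (28.7% of its genes) and 161 of the 836 without replicate 1 (61.7% of its genes), and 8 and 6 of the lower ones. Outside this chromosome 19 and 47 genes were higher and lower at 2-fold with all arrays, and 29 and 66 without replicate 1. Many of the 2-fold calls are in dim genes. With the dimmest 25% of genes left out, 4 higher and 17 lower genes were called at 2-fold, and 11 and 28 without replicate 1.

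Some genes of iron uptake, 7 of 27 listed, were lower in *swc5Δ*. In yeast, Aft1 and Aft2 turn on these genes when iron is short: cell wall mannoproteins that hold siderophores (Fit), transporters of siderophores (Arn) and reductases (Fre). *FIT3* (YOR383C) lay at 11.15, 9.82 and 9.93 in *swc5Δ* and at 12.53, 12.29 and 12.54 in *swr1Δ* (-2.16, standard error 0.35, adjusted p = 0.00033). *FIT2* (YOR382W), next to it on chromosome XV, lay at 11.32, 8.63 and 9.46 against 11.92, 11.86 and 12.08 (-2.15, standard error 0.51, adjusted p = 0.0061). *ARN2* (YHL047C), a siderophore transporter, lay at 9.16, 8.13 and 8.70 against 10.62, 10.43 and 10.80 (-1.95, standard error 0.41, adjusted p = 0.0028). *TIS11* (YLR136C), an RNA-binding protein that removes mRNAs of iron-using proteins when iron is low, lay at 9.22, 7.13 and 7.34 against 9.48, 9.39 and 9.62 (-1.60, standard error 0.50, adjusted p = 0.028). The arrays of the strains do not overlap in any of the 4, which was a condition of the rule that chose them. Replicate 1 of *swc5Δ* lies nearest to *swr1Δ* in all 4. Without it the differences were -2.58 in *FIT3*, -2.91 in *FIT2*, -2.20 in *ARN2* and -2.26 in *TIS11*.

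Of 27 iron genes listed, all measured, 7 were lower and 0 higher with all arrays, where 10.0% of all genes were lower and 11.7% higher, and all 7 were past 2-fold. The other 3, named after their values were seen, are *FIT1* (-1.58, adjusted p = 0.0016), the reductase *FRE5*, on the other side of *FIT3* (-1.53, adjusted p = 0.012), and the enterobactin transporter *ENB1* (-1.03, adjusted p = 0.033). Without replicate 1 of *swc5Δ* 11 were lower and 0 higher, where 13.2% of all genes were lower and 15.2% higher. The median of the list was -0.09 with all arrays and -0.26 without replicate 1, beside 0.01 and 0.00 over all genes. By array, the median difference from the *swr1Δ* mean was 0.08 on replicate 1, -0.46 on replicate 2 and -0.16 on replicate 3. Over all genes it was 0.02, 0.01 and 0.00. With replicate 1 taken alone against *swr1Δ*, the differences were -1.31 in *FIT3*, -0.64 in *FIT2*, -1.45 in *ARN2* and -0.28 in *TIS11*. The high-affinity iron oxidase *FET3* (12.69, 12.22 and 12.59 against 12.59, 12.60 and 12.86) did not pass, with a difference of -0.18 (95% interval -0.58 to 0.23). The regulator *AFT1* did not pass either (0.30, adjusted p = 0.10). *FET3* and *AFT1* were also chosen after their values were seen.

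Genes of the general stress response lay lower on replicates 2 and 3 of *swc5Δ*. On replicate 1 the list as a whole lay near the median of all genes. The transcription factors Msn2 and Msn4 turn these genes on under many stresses and when growth slows. Of 30 genes listed, all measured, 12 were lower and 0 higher with all arrays, where 10.0% of all genes were lower and 11.7% higher. Without replicate 1 it was 17 and 0, where 13.2% and 15.2% of all genes were. The median difference from the *swr1Δ* mean over the list was -0.07 on replicate 1, -0.73 on replicate 2 and -0.76 on replicate 3. Over all genes this median was 0.02, 0.01 and 0.00 on replicates 1 to 3. *DDR2* (YOL052C-A), a small protein made under many stresses, lay at 10.37, 8.82 and 9.11 in *swc5Δ* and at 11.53, 11.40 and 11.44 in *swr1Δ* (-2.02, standard error 0.28, adjusted p = 7.7e-05). *SIP18* (YMR175W), which protects dry cells, lay at 6.65, 5.70 and 6.01 against 7.60, 7.36 and 8.42 (-1.67, standard error 0.25, adjusted p = 0.00015). *GND2* (YGR256W), an isoform of 6-phosphogluconate dehydrogenase, lay at 6.69, 5.75 and 5.66 against 7.46, 7.36 and 7.78 (-1.50, adjusted p = 0.0020). *NQM1* (YGR043C), a transaldolase, lay at 7.76, 7.17 and 6.62 against 8.73, 8.43 and 8.90 (-1.50, adjusted p = 0.0045). In all 4 the strains do not overlap, which was a condition for the choice of *DDR2* and *SIP18*. Replicate 1 is the highest of the *swc5Δ* arrays in all 4. RNA came from whole cultures, so that fewer cells with a transcript and less of it in each cell cannot be told apart. The arrays on which the list is lowest are those with the raised chromosome V, and the part of that shift in the difference was not tested. Chromosome V carries 1 gene of the list and 2 of the iron list.

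Of 28 heat shock and chaperone genes (29 probe sets) 3 were lower, a share near the 10.0% of all genes, and 0 were higher. The small heat shock protein gene *HSP26* lay at 11.38 ± 0.55 in *swc5Δ* and at 12.35 ± 0.15 in *swr1Δ* (SD, n = 3; difference -0.97, adjusted p = 0.0052), with no overlap, and the median of the list was -0.08. *HXT5*, a hexose transporter of slowly growing cells, lay at 6.66, 7.30 and 6.67 against 8.46, 8.15 and 8.15 (-1.38, adjusted p = 0.00066), with no overlap. It was named from another list, that of hexose transport and glucose response. Of the 30 probe sets of that list 2 were higher and 4 lower (median -0.03), where 11.7% of all genes were higher and 10.0% lower.

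**Figure D3:**
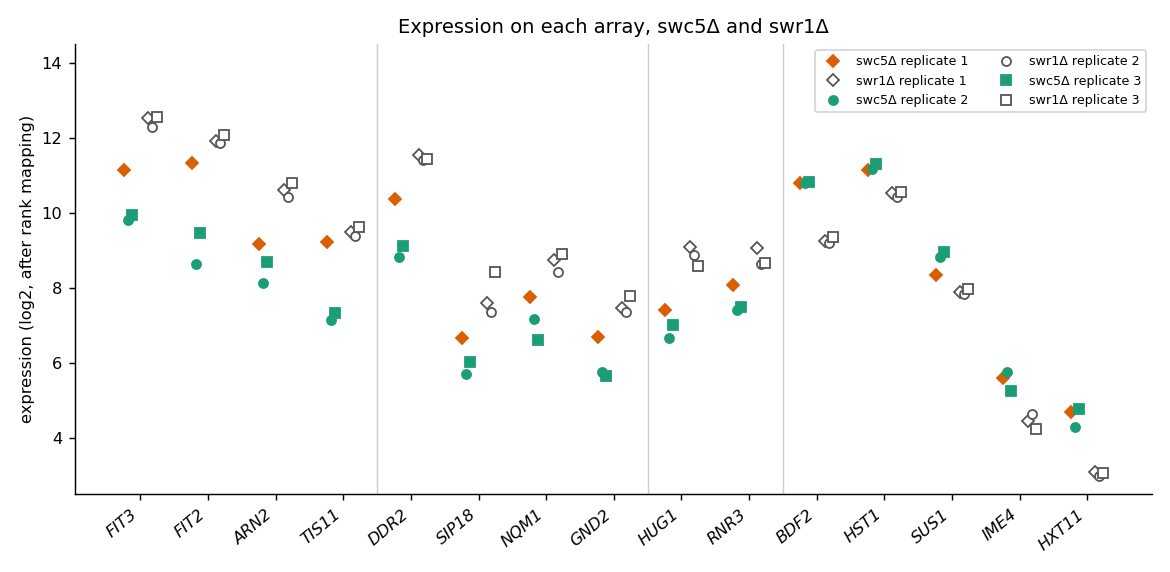
Expression (y axis, log2 after rank mapping) of 15 named genes (x axis) on each array, with filled symbols for *swc5Δ* (replicate 1 as an orange diamond) and open symbols for *swr1Δ*. From left to right, grey lines part iron uptake, general stress, the DNA damage targets *HUG1* and *RNR3*, and 5 genes that are higher in *swc5Δ*. In each gene the *swc5Δ* arrays lie all below or all above the *swr1Δ* arrays, which was a condition for the choice of several of them. In *BDF2* the 3 *swc5Δ* arrays lie at 10.80 to 10.81.

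*HUG1* and *RNR3*, targets of the DNA damage checkpoint, were lower in *swc5Δ*. *HUG1* (YML058W-A), an inhibitor of ribonucleotide reductase, the enzyme that makes deoxynucleotides, lay at 7.42, 6.66 and 7.01 in *swc5Δ* and at 9.08, 8.87 and 8.57 in *swr1Δ* (-1.81, standard error 0.27, adjusted p = 0.00020). *RNR3* (YIL066C), the damage-induced large subunit of the reductase, lay at 8.07, 7.41 and 7.50 against 9.05, 8.64 and 8.67 (-1.13, standard error 0.17, adjusted p = 0.00019). In both genes the strains do not overlap, which was a condition for the choice of *HUG1*. Wild type lay between the 2 strains, at 8.00 ± 0.30 for *HUG1* and 8.44 ± 0.09 for *RNR3* (SD, n = 3). The small subunits *RNR2* (-0.35, adjusted p = 0.0063) and *RNR4* (-0.20, adjusted p = 0.047), named after their values were seen, were lower by less than 1.5-fold. Of 27 listed genes of damage response and repair 26 were measured, of which 5 were lower, *DDR2* among them, and 2 higher, and the median was -0.10, where 10.0% of all genes were lower and 11.7% higher. Without replicate 1 of *swc5Δ* 7 were lower and 4 higher, where 13.2% and 15.2% of all genes were. *NTG1*, a glycosylase of base excision repair, was higher (0.48, adjusted p = 0.0035).

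The other genes that were lowest in *swc5Δ*, by the rule that ranks genes called in both fits, have no list in common. *NCA3* (YJL116C), of the SUN family of cell wall proteins, lay at 7.53, 6.38 and 7.38 in *swc5Δ* and at 9.64, 9.43 and 9.81 in *swr1Δ* (-2.53, standard error 0.27, adjusted p = 6.8e-06). *FMP48* (YGR052W), a kinase-like protein found with mitochondria, lay at 6.77, 6.03 and 6.44 against 8.46, 9.25 and 9.08 (-2.52, standard error 0.29, adjusted p = 1.1e-05). *YRO2* (YBR054W), a protein of the plasma membrane, lay at 10.52, 9.99 and 9.67 against 12.03, 12.23 and 12.17 (-2.09, standard error 0.22, adjusted p = 7.0e-06). *BSC1* (YDL037C) lay at 4.70, 5.60 and 5.80 against 6.54, 6.89 and 7.55 (-1.63, adjusted p = 0.0022), and here replicate 1 is the lowest array. Wild type lay near *swr1Δ* in *NCA3* (9.43 ± 0.11), *FMP48* (9.37 ± 0.59) and *YRO2* (11.92 ± 0.27). Against wild type, *swc5Δ* differed by -2.33, -2.95 and -1.86 in the 3 genes, all past the test, and *swr1Δ* passed in none of them. Over the 40 lower genes called in both fits, *SWC5* aside, 28 passed the test as lower in *swc5Δ* than in wild type and 6 as higher in *swr1Δ* than in wild type. These contrasts share the wild-type arrays, and the genes were chosen on the *swc5Δ* and *swr1Δ* arrays that enter them, so the counts are descriptions. The shares of all genes that passed against wild type are not given here.

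Among the genes that were higher in *swc5Δ* are several that lay low in *swr1Δ*. Of the 21 called in both fits, *SWR1* aside, 14 passed as lower in *swr1Δ* than in wild type and 9 as higher in *swc5Δ* than in wild type. This is again a description, without the shares over all genes. *BDF2* (YDL070W), a bromodomain protein and the paralog of the SWR1 subunit Bdf1, lay at 10.80, 10.80 and 10.81 in *swc5Δ* and at 9.24, 9.19 and 9.35 in *swr1Δ* (1.54, standard error 0.11, adjusted p = 5.0e-08). Its levels were 10.45 to 10.61 in wild type, 10.66 to 10.89 in *htz1Δ*, 10.81 to 11.02 in *swc2Δ*, 10.66 to 10.91 in *htz1Δ swc2Δ*, 10.70 to 11.05 in *htz1Δ swc5Δ* and 9.56 to 10.04 in *htz1Δ swr1Δ*. Both strains without *SWR1* thus lie below the other 6, and they do not overlap with any. *HST1* (YOL068C), a histone deacetylase related to Sir2, lay at 11.14, 11.18 and 11.31 against 10.53, 10.41 and 10.56 (0.71, adjusted p = 1.1e-05), and 0.64 higher in *htz1Δ swc5Δ* than in *htz1Δ swr1Δ* (adjusted p = 4.4e-05). *SUS1* (YBR111W-A), a subunit of SAGA and of mRNA export, lay at 8.35, 8.82 and 8.96 against 7.88, 7.84 and 7.97 (0.81, adjusted p = 0.00048). In these 3 genes the 6 strains that have *SWR1* all lie above the *swr1Δ* arrays.

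Of 39 genes of meiosis and sporulation 8 were higher and 4 lower, with a median of 0.19, where 11.7% of all genes were higher and 10.0% lower. The share of lower genes is thus near that over all genes. *IME4* (YGL192W), the mRNA methyltransferase of meiosis, lay at 5.60, 5.76 and 5.26 against 4.45, 4.64 and 4.24 (1.10, standard error 0.18, adjusted p = 0.00036). *SPO19*, a meiosis-specific protein of the spore membrane, lay at 6.42, 5.65 and 5.42 against 4.86, 3.88 and 3.62 (1.71, standard error 0.45, adjusted p = 0.011). *SPS100*, a spore wall protein, was lower (-1.02, adjusted p = 0.0099). *HXT11* (YOL156W), a hexose transporter, lay at 4.70, 4.29 and 4.76 in *swc5Δ* and at 3.09, 2.98 and 3.06 in *swr1Δ* (adjusted p = 9.1e-05). All 3 *swr1Δ* arrays lie under the level of probe sets for another species given above, so only a bound can be given, with *swc5Δ* at least 1.66-fold higher when each *swr1Δ* array is set to that level. *HXT11* is of the hexose transport list and not of the meiosis list, and *HXT9* of the same list was lower in *swc5Δ* (-0.61, adjusted p = 0.0054). *MF(ALPHA)1*, an α-factor gene, lay at 5.04, 5.04 and 5.46 against 4.16, 4.06 and 3.63 (1.23, adjusted p = 4.9e-05), while the other 3 α-specific genes and the 7 **a**-specific genes did not pass with all arrays. Without *swc5Δ* replicate 1 the **a**-specific *BAR1* passed (0.33, adjusted p = 0.034). In *SPO19* and *MF(ALPHA)1* replicate 3 of *swr1Δ* lies under the level of the other species, so their sizes are not exact. The levels of many higher genes are low, and 12 of the 22 higher genes called in both fits have a mean under 6 over the 6 arrays. Of the 41 lower ones 7 do, the deleted *SWC5* among them. The share of all genes under 6 is not given here.

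*YGL188C-A* lay at 4.58, 6.06 and 5.74 against 4.05, 3.02 and 3.01 (2.10, adjusted p = 0.0014). Replicates 2 and 3 of *swr1Δ* lie under the level of the other species there, so this size is not exact. *YBR090C* lay at 5.13, 4.99 and 4.97 against 3.61, 3.73 and 3.40 (adjusted p = 1.8e-08). All its *swr1Δ* arrays lie under that level, so that *swc5Δ* was at least 2.25-fold higher. The arrays of the strains do not overlap in either gene, again by the rule that chose them. *DAD4*, a subunit of the DASH complex of kinetochores, lay at 10.83, 11.45 and 11.77 against 10.82, 9.73 and 9.85 (1.22, adjusted p = 0.013), so that replicates 1 of the strains lie side by side. *YIG1*, of glycerol metabolism, lay at 7.58, 8.00 and 8.05 against 7.11, 6.46 and 6.44 (1.21, adjusted p = 0.00052). *YER188C-A*, *YER187W* and *RGI1* (a protein of respiratory growth) lie on chromosome V. *YER188C-A* lay at 6.19, 7.16 and 7.49 against 4.81, 5.21 and 5.04, so that replicate 1, without the raised chromosome, is above *swr1Δ* too (1.17 alone, adjusted p = 0.0055). *YER187W* lay at 5.54, 6.83 and 7.64 against 5.01, 5.26 and 5.40, and *RGI1* at 9.99, 10.66 and 10.67 against 9.25, 9.42 and 8.74. On replicate 1 alone neither passed (0.32, adjusted p = 0.42, and 0.86, adjusted p = 0.15). *CHZ1* (YER030W), a chaperone of H2A.Z and H2B, lies on chromosome V as well. It lay at 11.26, 11.68 and 11.73 in *swc5Δ* and at 10.65, 10.61 and 10.51 in *swr1Δ* (0.97, standard error 0.11, adjusted p = 8.1e-06). It passed on replicate 1 alone (0.67, adjusted p = 0.00078) and was 0.49 higher in *htz1Δ swc5Δ* than in *htz1Δ swr1Δ* (adjusted p = 0.0041).

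The other genes of the SWR1 complex differed by less than 2-fold. Of 15 listed, *HTZ1* among them and all measured, 5 were higher and 2 lower with all arrays, where 11.7% of all genes were higher and 10.0% lower. These counts include *SWR1* and *SWC5*, whose calls are set by the deletions. *SWC3* (0.36, adjusted p = 0.0044), *ARP6* (0.28, adjusted p = 0.0045), *HTZ1* (0.25, adjusted p = 0.036) and *BDF1* (0.18, adjusted p = 0.046) were higher and *SWC7* lower (-0.70, adjusted p = 0.034). Without replicate 1, *BDF1* (adjusted p = 0.15) and *SWC7* (adjusted p = 0.13) did not pass. *ARP6*, *BDF1* and the genes of the next sentence were chosen after their values were seen. For the helicases *RVB1* and *RVB2*, the actin-related *ARP4* and actin (*ACT1*) the 95% interval of the difference lay between -0.13 and 0.13, the lowest bound being that of *ARP4* and the highest that of *ACT1*, which lay at -0.25 under median centring of each array. Of the genes of canonical and linker histones (9 probe sets of 8 genes measured) 4 probe sets were higher and 0 lower, beside the same shares over all genes. The 4 differences were 0.18 to 0.28, with *HTB1* at 13.61, 13.63 and 13.68 against 13.35, 13.36 and 13.37. *HTA2* has 2 probe sets, of which 1 passed (0.18, adjusted p = 0.0036) and the other did not (0.06, adjusted p = 0.65, and -0.07 under median centring). The genes on each side of *SWC5* and *SWR1* were looked at for effects of the deletion cassette. Of 11 measured, 2 were higher (*PBP2*, 0.28, and *DAD3*, 0.37) and 2 lower (*GPI8*, -0.45, and *MRX8*, -0.20), all within 1.5-fold. Over all genes 11.7% were higher and 10.0% lower. Without replicate 1 the 2 higher ones passed and the 2 lower ones did not.

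Of the other lists, 4 are given here. Of 148 probe sets of cytosolic ribosomal proteins 10 were higher and 13 lower (median -0.01), and of 65 ribosome biogenesis genes 2 and 1 (median 0.00), both below the shares over all genes (11.7% and 10.0%). Without *swc5Δ* replicate 1 they were 16 and 7, and 5 and 1, where 15.2% of all genes were higher and 13.2% lower. Of 390 probe sets among the 15 outermost genes of each chromosome arm, 43 were higher and 48 lower (median 0.04), and 4 and 14 at 2-fold (0.418% and 0.909% of all genes), *YER188C-A*, *FIT2*, *FIT3* and *ARN2* among them. Of 22 silencing factors 4 were higher, *HST1* among them, and 2 lower (median 0.10).

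**Figure D4:**
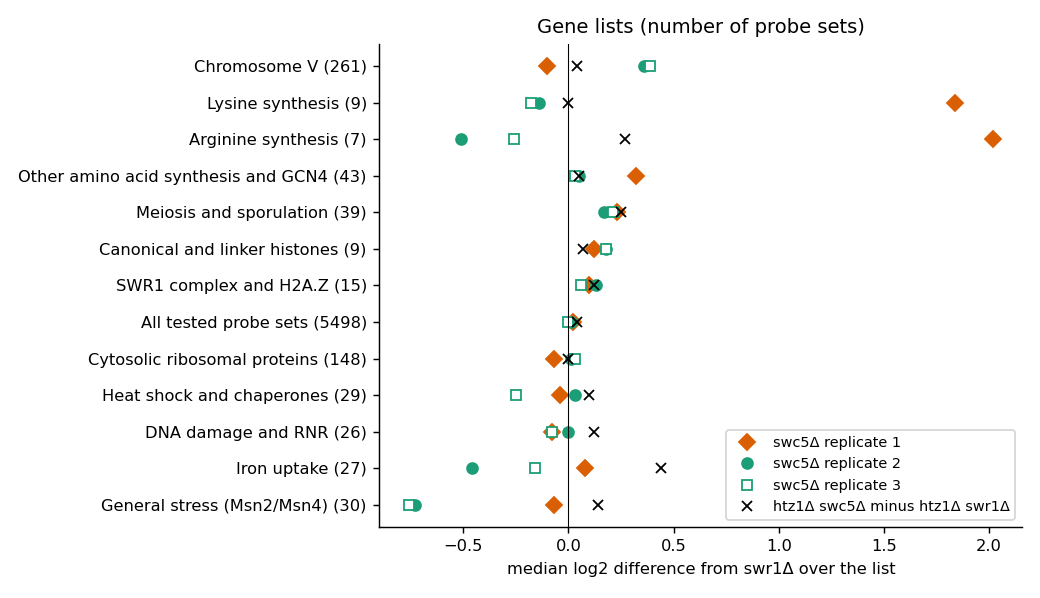
Median log2 difference from the *swr1Δ* mean (x axis) over the probe sets of each gene list (y axis, number of probe sets in parentheses), with 1 symbol for each *swc5Δ* array and a cross for *htz1Δ swc5Δ* minus *htz1Δ swr1Δ*. The general stress list lies at -0.73 and -0.76 on replicates 2 and 3 and at -0.07 on replicate 1, and arginine and lysine synthesis stand out on replicate 1.

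Past 2-fold, 1 higher and 9 lower genes were called with all arrays and not without *swc5Δ* replicate 1. *TIR1*, a cell wall mannoprotein of chromosome V, lay at 7.35, 8.92 and 8.64 against 9.61, 9.71 and 9.61, and its difference went from -1.34 (adjusted p = 0.012) to -0.86 (adjusted p = 0.052), and it was -2.30 on replicate 1 alone (adjusted p = 0.00093). *YAR066W* went from -1.18 to -0.84 (adjusted p = 0.069). These 2 genes lost the call, and replicate 1 is the lowest array in both. *AAD3*, an aryl-alcohol dehydrogenase homolog, *YGR126W*, *PRM7*, the proton pump gene *PMA2*, *SPS100* and the higher gene *BSC4* passed the test in both and lay past 2-fold only with replicate 1, with *PMA2* at -1.04 and -0.99 and *BSC4* at 1.05 and 0.90, of which the *swr1Δ* arrays lie under the level of the other species (at least 1.58-fold higher). *AAD3* has 3 probe sets and *PRM7* has 2, of which 1 each was called, and the others of *AAD3* differed by -0.42 and -0.39 with all arrays.

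The same contrast without H2A.Z rests on other arrays, *htz1Δ swc5Δ* against *htz1Δ swr1Δ*, 3 of each. There 11.2% of all genes were higher in *htz1Δ swc5Δ* and 7.20% lower. Of the 21 higher genes called in both fits, *SWR1* aside, 19 had the same sign there and 11 passed the test in the same direction, 0 in the opposite one, with a median of 0.84. On the log2 scale *BDF2* was higher by 1.11 (standard error 0.11, adjusted p = 7.2e-06), *HXT11* by at least 1.21-fold (adjusted p = 0.0010, the *htz1Δ swr1Δ* arrays being under the level of the other species), *SPO19* by 1.5 (adjusted p = 0.026) and *IME4* by 0.85 (adjusted p = 0.0037). Of the 40 lower genes, *SWC5* aside, 17 had the same sign, 5 passed in the same direction and 5 in the opposite one, with a median of 0.16, beside 0.04 over all genes. In the iron list 7 genes were higher in *htz1Δ swc5Δ* and 0 lower, and in the stress list 3 and 1, of 27 and 30 genes.

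The difference of the 2 differences, the interaction, was tested in the same fit. It passed in 71 genes (1.29%) with all arrays, 56 of them more negative with H2A.Z present and 15 more positive. Without *swc5Δ* replicate 1 it passed in 744 (13.5%), 382 more negative and 362 more positive, of which 111 lie on chromosome V. The 2 pairs of strains also differ in chromosome V, which is raised on 2 of the 3 *swc5Δ* arrays, and in *lys2Δ0* of *htz1Δ swc5Δ*, and neither can be told apart from H2A.Z here. *NCA3* lay at 7.53, 6.38 and 7.38 in *swc5Δ* and at 9.55 to 10.32 in *htz1Δ swc5Δ* (interaction -2.89, adjusted p = 0.00058). *FIT3* lay at 12.99 to 13.22 in *htz1Δ swc5Δ* and at 12.38 to 12.76 in *htz1Δ swr1Δ* (interaction -2.69, standard error 0.49, adjusted p = 0.0089). *DDR2* lay at 11.38 to 11.73 and 11.22 to 11.52 there (interaction -2.20, adjusted p = 0.0089). For *FIT3* and *NCA3*, *htz1Δ* was also low (10.27 to 10.35 and 7.72 to 7.83), so that the low strains are *swc5Δ* and *htz1Δ*, while in *DDR2* *htz1Δ* lay at 11.12 to 11.51. The interaction of *YBR090C* is of the other kind (adjusted p = 7.1e-06), with *swr1Δ* alone low. Its size of 1.46 rests on *swr1Δ* arrays under the level of the other species and is not exact. It lay at 3.40 to 3.73 in *swr1Δ* and at 4.78 to 4.98 in *htz1Δ swr1Δ*.

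**Figure D5:**
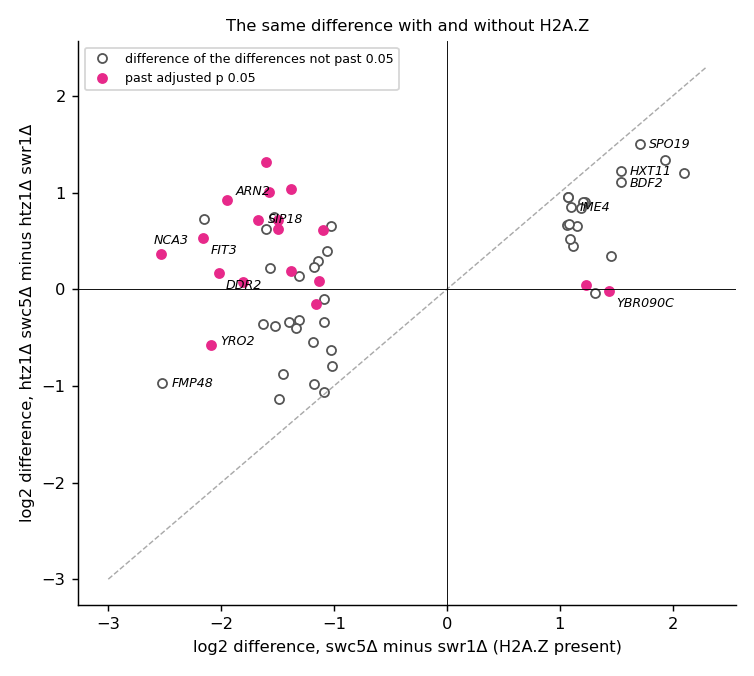
Log2 difference *htz1Δ swc5Δ* minus *htz1Δ swr1Δ* (y axis) against *swc5Δ* minus *swr1Δ* (x axis) for the genes called at 2-fold with all arrays and without *swc5Δ* replicate 1, *SWC5* and *SWR1* left out; the dashed line marks equal differences. *BDF2* lies at 1.54 and 1.11, below the line but on the same side of 0, and *NCA3* and *FIT3* lie at 0.36 and 0.53 on the y axis, with the filled points past an adjusted p of 0.05 for the difference of the differences.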

How the data were processed

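RNA from 24 cultures of 8 strains was hybridised to Affymetrix Yeast Genome 2.0 arrays, 3 per strain. The deposited log2 expression values were made by the authors with GeneChip Operating Software and RMA. They carry no counts, so the number of arrays limits the precision. Groups were taken from the labels. Of 10928 probe sets 5498 are paired with 1 yeast gene in the platform annotation, 1747 with another species or several genes, and 3683 are unnamed here.

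The *swr1Δ*, *swc2Δ* and *swc5Δ* arrays, whose deposited medians differ from the rest, were mapped by rank over all probe sets to the mean distribution of the other 15 arrays. limma 3.58.1 (R 4.3.3) was fitted with 1 mean per strain over the 24 arrays (16 residual degrees of freedom), and p-values were adjusted by the Benjamini-Hochberg method over the 5498 probe sets. A call is an adjusted p under 0.05, with a 2-fold difference where stated. The test of H2A.Z dependence is the difference of the 2 contrasts in the same fit. The fit assumes that a probe set varies alike in all strains. The fits without *swc5Δ* replicate 1 and with it alone assume that the remaining arrays vary like those of the other strains. The fit was tested on simulated data with normal noise of the same SD in all strains. These data held no array that stands apart and no raised chromosome, so that test does not cover either.

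Named are the deleted genes and *HTZ1*, the 12 largest differences in each direction among genes called at 2-fold with and without *swc5Δ* replicate 1 whose arrays do not overlap, the 8 largest called only with it, the 8 in which it lies farthest from replicates 2 and 3, up to 4 genes of each list and the neighbours of the deleted genes. Other genes are said to be chosen after their values were seen. The members and lists were chosen with earlier results of these data known. Other scalings, filters, fits, a replicate block and leaving out each array were tried. Promoter motifs were not analysed here.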

Additional observations from a re-analysis of the deposited data

Results flagged for a closer look

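In 16 of the genes named above the difference between the strains was not the same in the pair with H2A.Z and the pair without, by the test of the difference of the differences in limma over all genes. Many of these genes were named for a large difference in the first pair, which enters the test. The pairs also differ in the raised chromosome V of 2 *swc5Δ* arrays and in *lys2Δ0*, and the number of genes that passed went from 30 to 744 as single arrays were left out. The values are *swc5Δ* minus *swr1Δ* less *htz1Δ swc5Δ* minus *htz1Δ swr1Δ*, on the log2 scale. Among iron genes it was -2.69 for *FIT3* (standard error 0.49, adjusted p = 0.0089), -2.59 for *FIT1* (0.44, adjusted p = 0.0063) and -2.87 for *ARN2* (0.59, adjusted p = 0.018). Among stress genes it was -2.20 for *DDR2* (adjusted p = 0.0089), -2.39 for *SIP18* (adjusted p = 0.0019), -2.12 for *GND2* (adjusted p = 0.018), -2.22 for *NQM1* (adjusted p = 0.028) and -1.63 for *HSP26* (adjusted p = 0.015). *HUG1* (-1.87, adjusted p = 0.019) and *RNR3* (-1.22, adjusted p = 0.016) had it among the damage targets. It was -2.89 for *NCA3* (adjusted p = 0.00058), -1.50 for *YRO2* (adjusted p = 0.021) and -1.57 for *HXT5* (adjusted p = 0.028). In 3 genes it was positive, 1.46 for *YBR090C* (adjusted p = 7.1e-06, with *swr1Δ* at the background level), 0.65 for *BAR1* (adjusted p = 0.037) and 1.19 for *MF(ALPHA)1* (adjusted p = 0.012).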

How the results depend on the processing

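Of the single-gene differences named above, 1208 values under the alternatives kept direction and side of the threshold, 146 no longer passed, 21 newly passed and 9 changed sign. With the values as deposited, 506 genes were higher and 11 lower at 2-fold, 5032 and 31 at any size, 635 lay within 1.5-fold and 4751 depended on H2A.Z, and the sign changed for *ARP4* (0.67), *GPI8* (0.23), *MRX8* (0.47), *RNR2* (0.20), *RNR4* (0.30) and *STE2* (0.49). Under median centring 893 genes were lower at any size and 229 depended on H2A.Z, with *ACT1* at -0.25 and *HTA2* at -0.07. Leaving out each array in turn gave 17 to 39 higher and 45 to 67 lower genes at 2-fold, 415 to 836 and 363 to 726 at any size, 4171 to 4244 within 1.5-fold and 30 to 744 dependent on H2A.Z. In each the highest count was without *swc5Δ* replicate 1, where *ARG8* turned to -0.58 (up to 1.04 without another array). H2A.Z dependence fell to 36 and 43 without *swc5Δ* replicates 2 and 3, and to 39 and 30 without *swr1Δ* replicates 2 and 3. With the dimmest 25% left out, 4 higher and 17 lower genes were called at 2-fold and 32 depended on H2A.Z. With array weights 38 were higher at 2-fold, 1054 higher and 930 lower at any size, and 1146 depended on H2A.Z. With the 6 arrays only, 194 were higher and 171 lower at any size, and when these were quantile normalized together 15 were higher at 2-fold, and 186 higher and 176 lower at any size. The cause of these changes was not tested.

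Of the alternatives chosen after seeing the data, *swc5Δ* replicate 1 alone gave 68 higher genes at 2-fold and 158 dependent on H2A.Z. Without it, 11 higher and 28 lower genes were called at 2-fold with the dimmest left out, and 37 higher with the 6 arrays normalized together. Leaving out chromosome V kept the 4 counts of higher and lower genes within 1.5 times. With the replicate number as a block 24 and 51 genes were called at 2-fold, 721 and 618 at any size, 4455 lay within 1.5-fold and 96 depended on H2A.Z. The numbers do not pair the samples, since the deviations of same-numbered arrays correlated at -0.08, 0.04 and 0.18.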

Other observations

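The genes in which *swc5Δ* replicate 1 stands apart were also looked at in *htz1Δ*. Over the 111 genes that were over 2-fold higher on replicate 1 than on the mean of replicates 2 and 3, the median of *htz1Δ* minus wild type was 0.40, and over the 67 that were lower it was -0.31, beside -0.02 over all genes. In *ARG3* the 3 *htz1Δ* arrays had a mean of 12.55, beside 13.24 on replicate 1. The genes were chosen by their values on these arrays, so these are descriptions with no test.

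Past 2-fold, *swc5Δ* replicate 1 taken alone shared 11 of its 68 higher genes with the 39 called without it, and 20 of its 64 lower genes with the 67 called without it. *BDF2* was among the genes called by both, at 1.54 in each.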
